A study of Arabidopsis thaliana with 30 samples.

Results

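The 34 genes described here encode the proteins that copy DNA in S phase of the Arabidopsis thaliana cell cycle. They were taken by locus code from a list of named replication factors. The list holds MCM2 to MCM7, 7 genes for origin recognition complex subunits, CDC6 and CDT1 genes, MCM10, CDC45, ETG1, the clamp genes PCNA1, PCNA2 and RFC1, and 3 DNA polymerase catalytic subunits. It ends with genes of ribonucleotide reductase, the thymidine kinase TK1A, FAS1 and FAS2 of chromatin assembly factor 1, and the transcription factors E2FA and E2FB. All 34 were present among 32678 genes in the mutant table, 34218 in the table of the ZAT lines and 33602 in the sorted-cell files. All 34 also passed the filter on low values in every comparison.

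As background, replication starts where the origin recognition complex sits on DNA and, with CDC6 and CDT1, loads the ring of MCM2 to MCM7, the replicative helicase. MCM10 and CDC45 act when loaded rings are turned on, and ETG1 binds the helicase. PCNA is the ring that holds the polymerases on DNA, and replication factor C opens it. Ribonucleotide reductase and thymidine kinase supply nucleotides, and CAF-1 places histones behind the fork. Many of these genes carry E2F binding sites and are transcribed at the G1/S boundary, under E2F factors and the retinoblastoma-related protein. In roots such genes are known for expression in the meristem, where cells divide, and they fall silent as cells such as sieve elements mature.

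RNA was sequenced in 30 libraries, in 10 groups of 3, from seedlings 5 days old. A first set compared root meristems labelled pear sextuple mutant with meristems of the wild type Col-0. Its labels give no alleles and no treatment. In a second set, Col-0 plants carried either pWOL(XVE)::ZAT14-like-TURQ or pWOL(XVE)::ZAT14-TURQ. In them estradiol induces a zinc finger gene under a promoter of the root vasculature, and meristems were cut in batches of 15 seedlings. Those groups were DMSO, the solvent, and 5 µM estradiol for 10 h or 14 h, in each line. The labels used here give no time for DMSO libraries, and 1 DMSO group per line serves both times. Changes with hours in medium or time of day cannot be told apart from responses to the induced gene. Plants of the last set carried pNAC086(XVE)::PLT2-3YFP together with the nuclear marker pCALS7::H2B-RFP. Both promoters are active in developing sieve elements, and estradiol induces PLT2 there. Its groups were protoplasts after 6 h in 10 µM estradiol, sorted as positive for RFP and YFP, and protoplasts after DMSO, sorted as positive for RFP. All plants of the ZAT and PLT2 sets carry their transgene, DMSO plants included, and no line without a transgene received estradiol. Whether libraries of 1 group were grown separately is not given in the labels, so each p-value reflects only how these libraries vary.

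The induced genes moved as labelled. FPKM counts fragments per kilobase of gene, scaled to the total of each library, and lets levels of genes be set side by side. In its own line ZAT14-like averaged 5.98 FPKM (DMSO), 54.9 (10 h) and 71.4 (14 h), and in the other ZAT14 averaged 15.2 FPKM (DMSO), 45.4 (10 h) and 68.2 (14 h). PLT2 averaged 31580 normalized CPM, or counts scaled to library size, with estradiol and 8.22 with DMSO. In the libraries labelled pear sextuple, transcripts of OBP2, DOF6, PEAR2 and PEAR1 were lower than in Col-0. Those of 2 other Dof genes of that family were higher: TMO6 averaged 78.6 FPKM in pear sextuple and 12.3 in Col-0, and HCA2 averaged 2.18 FPKM in pear sextuple and 0.283 in Col-0. Total counts of the sorted-cell libraries ran from 31426740 to 44837397. Depth in the FPKM tables was estimated at 17.8 to 26.72 M reads. A library of sorted DMSO cells, replicate 2, had 18088 genes with 10 or more counts, against 23095 to 25728 in the other 5.

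E2F-type letters were common in front of the replication genes, and the stretches around them are printed here because most helicase genes held a match and no clamp gene did. The searched letters were TTTCCCGC, TTTGGCGC, TTTCGCGC and TTTGCCGC, on both strands, from 250 bases before to 50 bases after the annotated gene start in RefSeq TAIR10.1. A position can match only 1 of the 4, though matches on opposite strands can overlap. At least 1 of them stood in 14 of 34 windows (41.2%), against 483 of 27443 windows of all protein-coding genes (1.76%). The most frequent was TTTCCCGC, in 32.4% of the 34 windows and 0.798% of all. TTTGGCGC stood in 11.8% of the 34 and 0.434% of all. TTTCGCGC stood in 2.94% and 0.222%, and TTTGCCGC in none of the 34 and in 0.35% of all. The windows of 5 of the 6 helicase genes held a match, MCM7 being the exception, as did 4 of 7 origin genes and both CAF-1 genes. No match was found for the 3 clamp genes, the 3 genes MCM10, CDC45 and ETG1, or E2FA and E2FB. Only these 4 exact words were searched and variants were not counted, so a window without a match may still hold E2F sites. These letters are a description and no measure of binding. The sequences follow 5′ to 3′ on the gene's strand, and capitals mark the matched letters, which read GCGGGAAA or GCGCCAAA where the match is on the other strand. They lie at chr1:16970175-16970213 (+) for MCM2, chr5:18773844-18773901 (−) for MCM3, chr2:7130732-7130789 (−) for MCM4, chr2:3527501-3527544 (−) for MCM5 and chr5:18010681-18010738 (−) for MCM6. The stretch of CDC6B is chr1:2233018-2233056 (−), that of ICU2 is chr5:26776858-26776934 (+), with 2 matches, and that of FAS2 is chr5:25833130-25833164 (+).
MCM2: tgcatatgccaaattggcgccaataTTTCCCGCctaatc
MCM3: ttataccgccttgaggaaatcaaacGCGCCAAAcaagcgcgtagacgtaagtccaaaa
MCM4: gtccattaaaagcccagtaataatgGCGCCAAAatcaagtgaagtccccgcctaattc
MCM5: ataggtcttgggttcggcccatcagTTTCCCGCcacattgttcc
MCM6: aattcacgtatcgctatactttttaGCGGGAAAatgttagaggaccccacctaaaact
CDC6B: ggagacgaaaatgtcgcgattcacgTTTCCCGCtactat
ICU2: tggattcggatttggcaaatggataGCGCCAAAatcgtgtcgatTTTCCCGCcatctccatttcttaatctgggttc
FAS2: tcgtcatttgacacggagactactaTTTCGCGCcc

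**Figure D1:**
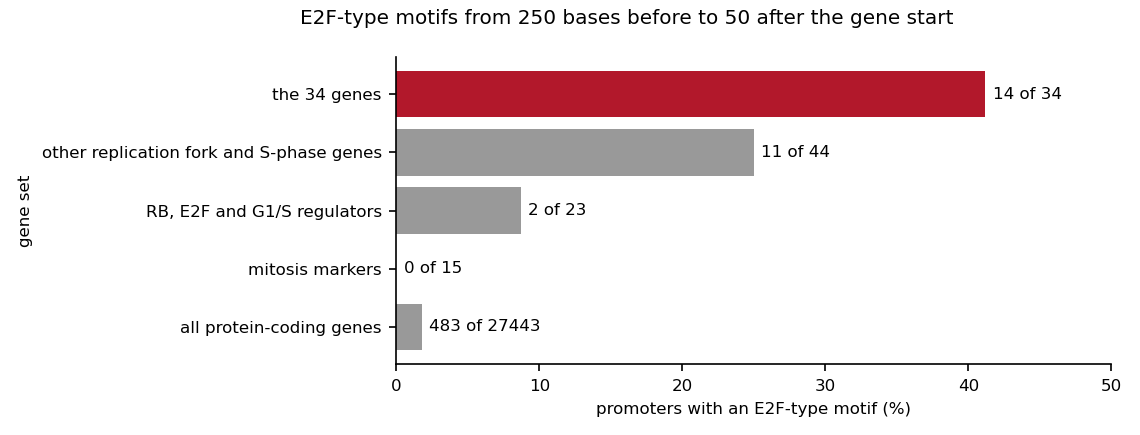
Share of promoters with at least 1 E2F-type motif (horizontal axis, percent) in 5 gene sets (vertical axis). Bars are shares, labelled with their counts: 14 of the 34 genes, 11 of 44 other replication fork and S-phase genes, 2 of 23 regulators of the G1/S step, 0 of 15 mitosis markers and 483 of 27443 protein-coding genes.

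The same search found a match in 25% of 44 other genes of the replication fork and S phase, and in 8.7% of 23 genes around RB, E2F and the G1/S step. None of 15 mitosis markers had one.

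In Col-0 meristems the 34 genes differed widely in level. The clamp genes PCNA1 and PCNA2 were the highest, at 78.8 ± 3.22 and 68.7 ± 2.73 FPKM (SD, n = 3), with TSO2, a small subunit of ribonucleotide reductase, at 68.1 ± 4.97. The levels of PCNA2 and TSO2 lay within their spread of each other. RNR1, the large subunit of that enzyme, followed at 35.8 ± 3.99 FPKM. MCM2 to MCM7 lay together between 15.2 and 27.7 FPKM. ORC6 stood at 27.6 FPKM, near the helicase genes, while ORC1A, 1 of 2 copies of the ORC1 subunit, was the lowest of all at 2.38 ± 0.254. Across the 6 libraries of the mutant table, the highest value of a gene was a median of 1.39 times its lowest. That ratio was 1.52 in the 18 libraries of the ZAT table and 4.15 in the 6 sorted-cell libraries. These ratios pool the groups of a table, so they hold differences between groups as well as between replicates.

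**Figure D2:**
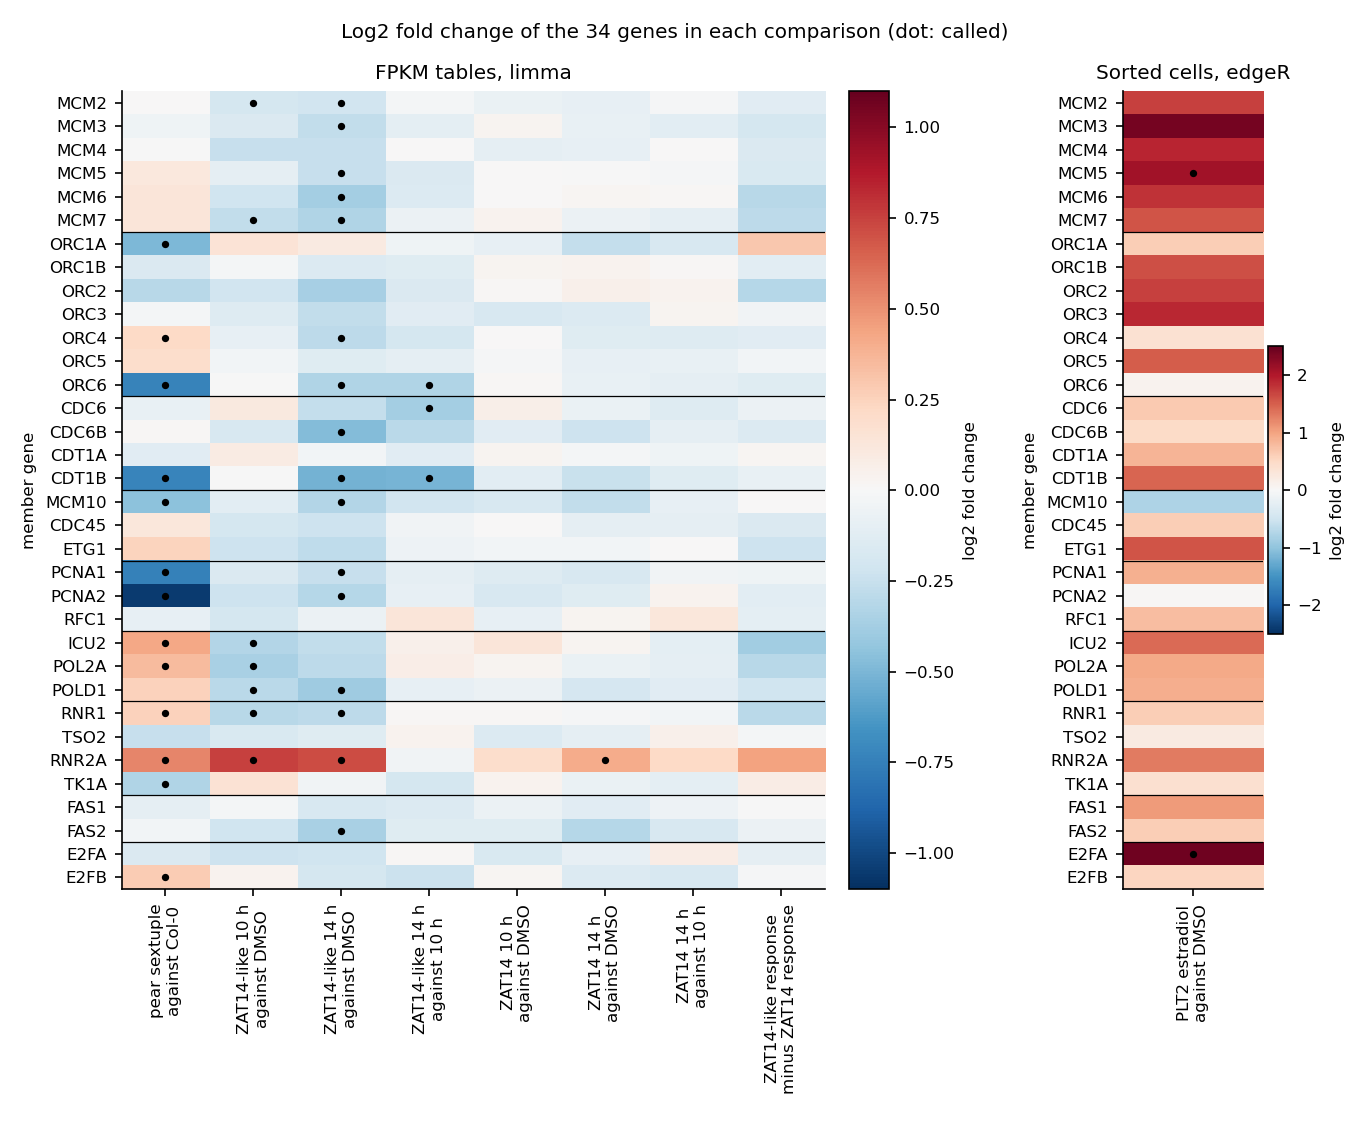
Log2 fold change (colour scale) of the 34 genes (rows, grouped by role between black lines) in each comparison (columns); the FPKM tables were tested with limma and the sorted cells with edgeR, on separate colour scales. Dots mark genes called at an adjusted p under 0.05: 13 in pear sextuple against Col-0, 16 in ZAT14-like 14 h against DMSO and 2 in PLT2 estradiol against DMSO.

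The comparison of the libraries labelled pear sextuple with Col-0 asks which genes differ in plants mutant for PEAR-type Dof factors, of which 4 were lower and TMO6 and HCA2 higher in these libraries. The 34 genes did not move as a block. Both PCNA genes were much lower in pear sextuple, as were ORC6, CDT1B, MCM10, ORC1A and TK1A. RNR2A was higher under both scalings tried, ICU2 and POL2A only before rescaling, while no gene of the MCM2 to MCM7 helicase was called. With limma and Benjamini-Hochberg adjustment over 17062 genes, 7 of the 34 were called lower, where 18.6% of all genes tested were, and 6 were called higher, where 44.6% of all genes were. The lower share of the 34 was thus close to that of all genes. Their median log2 fold change was −0.03, while that of all genes tested was 0.21. With libraries rescaled by median ratios, which removes that shift of 0.21, 14 of the 34 were lower, where 29.8% of all genes were, and 1 was higher, RNR2A, where 28.8% of all were. The calls of RNR1, ORC4, ICU2, POL2A and E2FB as higher were lost on rescaling.

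PCNA2 (AT2G29570, chr2:12649906-12651753, TAIR10.1) had the deepest fall. It read 33.2, 30.9 and 33.8 FPKM in the 3 pear sextuple libraries, against 71.1, 65.7 and 69.2 FPKM in Col-0. Its log2 fold change was −1.05 (SE 0.0678, limma adjusted p = 9.851e-06), and −1.27 after rescaling. PCNA1 (AT1G07370, chr1:2263037-2264553) read 45.2, 46.2 and 48.3 FPKM in pear sextuple, against 81.2, 75.2 and 80.1 FPKM in Col-0 (log2 fold change −0.75, SE 0.0646, limma adjusted p = 3.645e-05). For both genes every pear sextuple library lay below every Col-0 library. The share of all genes whose groups lie apart in this way was not computed, for this or any comparison below. Such statements therefore describe the libraries of the named genes only. The ratio of PCNA2 to PCNA1 was 0.67 to 0.734 in pear sextuple libraries and 0.864 to 0.876 in Col-0 libraries. RFC1, the large subunit of the clamp loader, had a log2 fold change of −0.09 and was called lower only after rescaling (−0.30).

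Among the 11 origin and loading genes ORC6, ORC1A and CDT1B were lower under both scalings, and ORC1B, ORC2 and CDT1A only after rescaling. ORC6 (AT1G26840) read 15.4, 15.8 and 17.0 FPKM in pear sextuple and 27.7, 24.7 and 30.2 FPKM in Col-0 (log2 fold change −0.74, limma adjusted p = 0.0001894). CDT1B (AT3G54710), 1 of 2 CDT1 genes whose products bring the helicase to origins, read 8.53, 8.30 and 8.18 FPKM in pear sextuple, against 15.1, 13.6 and 14.5 in Col-0 (−0.72, limma adjusted p = 9.612e-05). The groups did not overlap for either gene. Its copy CDT1A averaged 24.99 FPKM in pear sextuple and 27.4 in Col-0, without overlap, and was called only after rescaling (−0.13 before, −0.35 after, limma adjusted p = 0.007335). CDT1A exceeded CDT1B by 3.00 times in pear sextuple and 1.90 times in Col-0. ORC1A (AT4G14700) stood at 1.39 FPKM in all 3 pear sextuple libraries and at 2.67, 2.21 and 2.26 FPKM in Col-0 (−0.50, limma adjusted p = 0.004827). ORC1B, the more abundant copy, averaged 10.2 ± 0.682 FPKM in pear sextuple and 11.6 ± 1.22 in Col-0 and was called lower only after rescaling. ORC1A and ORC1B share 2.14% and 1.9% of their 50-base words with other genes, so some reads of the pair may have been split between them.

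MCM10 (AT2G20980), the firing factor, read 18.9, 19.7 and 18.6 FPKM in pear sextuple and 27.8, 26.7 and 24.96 FPKM in Col-0 (log2 fold change −0.45, limma adjusted p = 0.0007695). The helicase itself stood apart from it. MCM2 to MCM7 summed to 147.5 ± 4.95 FPKM in pear sextuple and 142.1 ± 17.8 FPKM in Col-0, and their log2 fold changes ran from −0.04 to 0.13. After rescaling those 6 values ran from −0.26 to −0.08, and none was called. The ratio of MCM10 to MCM2 was 0.734 ± 0.051 in pear sextuple and 1.03 ± 0.107 in Col-0, with no overlap between libraries.

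RNR2A (AT3G23580, chr3:8459838-8462815), the second small subunit of ribonucleotide reductase among the 34, was the 1 gene called higher under both scalings. It read 19.3, 19 and 21.1 FPKM in pear sextuple, against 13.8, 12.9 and 13.1 FPKM in Col-0 (log2 fold change 0.54, limma adjusted p = 0.0004047; 0.33 after rescaling, adjusted p = 0.007566). TSO2, the more abundant small subunit, averaged 57.3 ± 7.38 FPKM in pear sextuple and 68.1 ± 4.97 in Col-0 and was called lower only after rescaling (−0.47). TK1A (AT3G07800), which salvages thymidine, read 8.02, 7.94 and 7.15 FPKM in pear sextuple and 9.31, 10.9 and 9.61 FPKM in Col-0 (−0.33, limma adjusted p = 0.01319), a call that was lost without the pear sextuple library of replicate 4. The gene AT3G23570 overlaps RNR2A on the other strand by 153 bases and averaged 33.2 FPKM in pear sextuple and 7.02 FPKM in Col-0. Strand use in counting is not given in the sources used here, and the part of these reads in RNR2A was not tested. POL2A overlaps a pair of genes on the other strand, by 1756 and 624 bases, and ICU2, MCM7, PCNA2, ORC4 and POLD1 overlap 1 each, by 1326, 437, 279, 80 and 71 bases. The neighbour of MCM7 averaged 46.0 FPKM in pear sextuple and 12.8 in Col-0. That of ORC4 averaged 20.7 FPKM in pear sextuple and 10.3 in Col-0, and that of POLD1 averaged 23.7 FPKM in pear sextuple and 7.602 in Col-0. The neighbours of POL2A averaged 3.87 and 4.24 FPKM in pear sextuple and 2.86 and 2.78 FPKM in Col-0, that of ICU2 10.9 FPKM in pear sextuple and 11.1 in Col-0, and that of PCNA2 41.4 FPKM in pear sextuple and 38.8 in Col-0. ORC1A, the lowest of the 34, overlaps AT4G06210 by 825 bases and AT4G14710 by 94, both on the other strand. AT4G14710 averaged 32.0 FPKM in pear sextuple and 30.45 in Col-0, and AT4G06210 had no value there. CDC6, E2FA and RFC1 overlap 1 gene each on the other strand, by 123, 65 and 24 bases.

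ICU2, the catalytic subunit of polymerase alpha, read 13.6, 12.6 and 13.3 FPKM in pear sextuple, against 10.4, 8.13 and 10.14 in Col-0 (log2 fold change 0.43, limma adjusted p = 0.006309; 0.22 and uncalled after rescaling). POL2A of polymerase epsilon behaved likewise, at 0.35 and 0.14. E2FB, an activating E2F, averaged 6.53 ± 0.444 FPKM in pear sextuple and 5.21 ± 0.241 FPKM in Col-0 (0.28), while E2FA averaged 11.8 ± 0.412 FPKM in pear sextuple and 13.3 ± 1.25 in Col-0 (−0.16). After rescaling E2FB was at 0.08 and uncalled, while E2FA was called lower at −0.37. FAS1 was called lower only after rescaling (−0.32), and FAS2 under neither scaling.

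**Figure D3:**
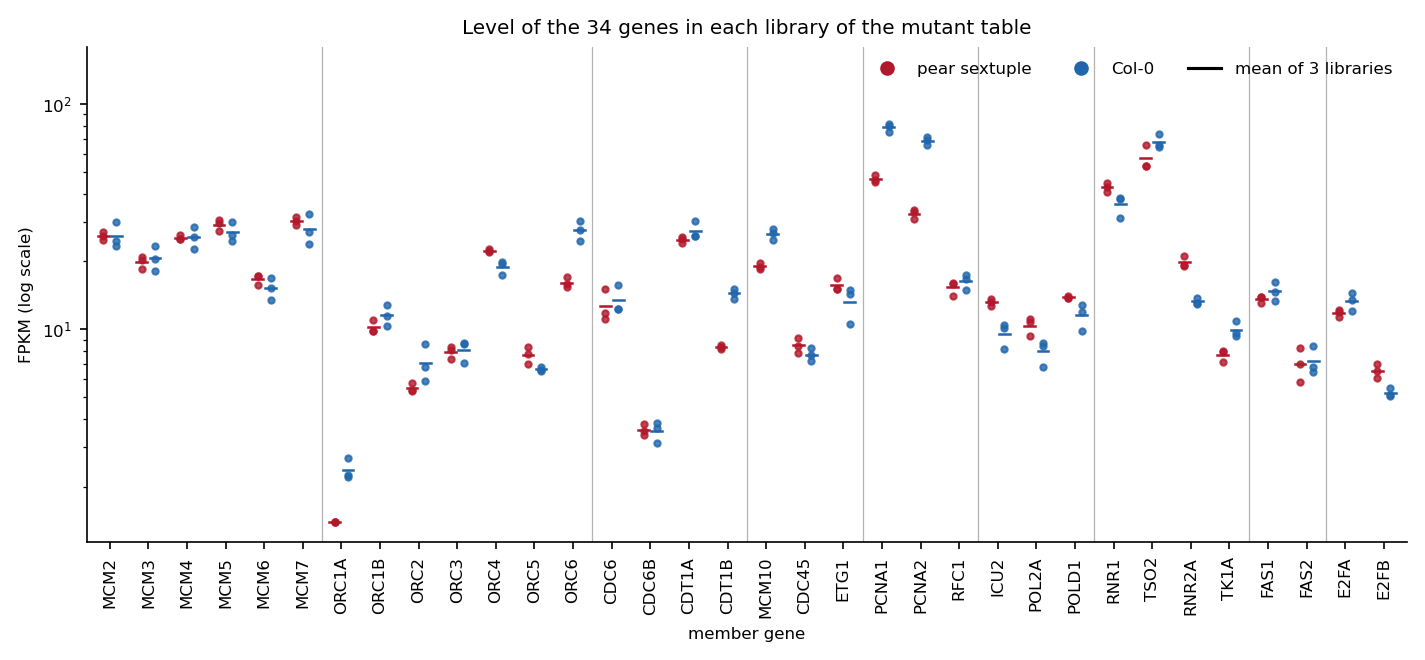
FPKM on a log axis for each of the 34 genes (horizontal axis, grouped by role between grey lines) in the 3 pear sextuple libraries (red, left) and the 3 Col-0 libraries (blue, right); short lines are means. PCNA1, PCNA2, ORC6, CDT1B and MCM10 lie lower in all pear sextuple libraries, RNR2A lies higher, and MCM2 to MCM7 overlap.

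Genes of the same pathway outside the 34 were divided too. Of 44 other fork and S-phase genes, 8 were called higher, where 44.6% of all genes were, and 11 lower, where 18.6% were. Their median was −0.09. DUT1, which removes dUTP, averaged 37.5 FPKM in pear sextuple and 72.5 FPKM in Col-0, and the ligase gene LIG1 averaged 18.6 FPKM in pear sextuple and 26.2 in Col-0. The replication protein A genes differed among themselves, with RPA1D at −0.53 and RPA3A at −0.50 but RPA1A at 0.45. Of 23 regulators, 10 were higher and 3 lower, beside those same shares of all genes. All calls of these lists are before rescaling. The D-type cyclin CYCD3;3 averaged 63.8 FPKM in pear sextuple and 24.4 FPKM in Col-0.

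Markers of other cells are given before rescaling, where 44.6% of all genes tested were called higher and 18.6% lower. Their sums and calls thus hold the shift of 0.21 in the median log2 fold change of all genes. Summed root cap markers (SMB, BRN1 and BRN2, all 3 called higher) ran from 179.4 to 203.8 FPKM in pear sextuple and 72.4 to 86.8 in Col-0. Root meristem markers, with 4 of 7 higher, ran from 210.8 to 229.3 FPKM in pear sextuple and 115.5 to 136.5 in Col-0. Sieve element markers, with 3 of 5 tested lower and 1 higher, ran from 10.13 to 10.8 FPKM in pear sextuple and 11.7 to 15.3 in Col-0, with NAC045 and SEOA at 0 in every pear sextuple library. Epidermis and endodermis markers, with 3 of 4 tested higher, ran from 142.0 to 145.0 FPKM in pear sextuple and 98.6 to 120.8 in Col-0. Xylem and companion cell markers, with 2 of 3 tested higher, ran from 4.95 to 6.63 FPKM in pear sextuple and 2.12 to 4.04 in Col-0. Mitosis markers, with 3 of 15 higher and 3 lower, ran from 385.8 to 425.7 FPKM in pear sextuple and 364.1 to 455.1 in Col-0. The part of these differences in the results for the 34 genes was not tested. In bulk meristems, fewer cells of a type and less RNA per cell cannot be told apart.

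In the ZAT14-like line the question is how the genes differ from DMSO after 10 h and 14 h of estradiol, which induces a gene in the vasculature. Log2 fold changes were below 0 for 28 of the 34 genes at 10 h and for 32 at 14 h, and 6 and 15 of them were called lower. The lowered genes spanned all roles but the E2F genes, with the helicase genes MCM6 and MCM7, the loading factors CDT1B and CDC6B and the polymerase POLD1 among them. RNR2A alone was higher, at both times. At 10 h, those 6 compare with 4.83% of 17157 genes tested called lower, and 1 was higher, where 8.96% of all were (limma, Benjamini-Hochberg). At 14 h, 15 were lower, where 4.49% of all were, and 1 was higher, where 7.89% of all were. The median log2 fold change of the 34 was −0.16 at 10 h and −0.26 at 14 h, while the median of all genes was 0.03 and −0.00. Both comparisons share the DMSO libraries.

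Most helicase genes were called lower by 14 h. MCM7 (AT4G02060) read 31.0, 31.1 and 29.6 FPKM with DMSO, 21.8, 27.6 and 26.3 at 10 h, and 24.6, 22.7 and 24.96 at 14 h. Every induced library lay below every DMSO library, with log2 fold changes of −0.27 at 10 h (limma adjusted p = 0.03054) and −0.33 at 14 h (adjusted p = 0.009949). MCM6 (AT5G44635) read 12.4, 13.2 and 11.9 FPKM with DMSO, 10.99, 10.3 and 10.6 at 10 h, and 10.9, 8.43 and 9.23 at 14 h. MCM6 was called at 14 h only (−0.37, limma adjusted p = 0.007132). MCM2, MCM3 and MCM5 were also called lower at 14 h, at −0.21, −0.27 and −0.25. MCM4 read −0.26 at both times and was not called, with adjusted p of 0.06531 and 0.07403. The summed level of MCM2 to MCM7 was 137.7 ± 6.52 FPKM in DMSO libraries, 119.2 ± 6.86 at 10 h and 112.6 ± 6.78 at 14 h (SD, n = 3).

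The loading factors CDT1B and CDC6B were called at 14 h and not at 10 h. CDT1B read 11.3, 11.4 and 9.45 FPKM with DMSO, 12.4, 10.5 and 9.19 at 10 h, and 7.91, 6.59 and 7.05 at 14 h. The 10 h libraries overlapped those with DMSO and the 14 h libraries lay below all others. The log2 fold change was −0.01 at 10 h and −0.52 at 14 h (limma adjusted p = 0.002822). CDC6B (AT1G07270), a second CDC6 gene, read 3.68, 4.12 and 3.49 FPKM with DMSO, 3.66, 2.80 and 3.19 at 10 h, and 2.32, 2.63 and 2.30 at 14 h (−0.48 at 14 h, limma adjusted p = 0.01045). CDT1A, at −0.03, was not called, and its ratio to CDT1B averaged 2.39 with DMSO, 2.58 at 10 h and 3.49 at 14 h. ORC6 read 24.8, 24.0 and 20.3 FPKM with DMSO, 24.9, 22.2 and 21.6 at 10 h, and 18.2, 17.4 and 18.4 at 14 h (−0.33 at 14 h, limma adjusted p = 0.009792). ORC4 was the other origin gene called lower at 14 h, at −0.29.

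Set against 10 h directly, 14 h had 3 genes lower, where 4.93% of all genes were, and none higher, where 3.72% of all were. The 3 were CDT1B (−0.51, limma adjusted p = 0.005553), ORC6 (−0.33, adjusted p = 0.01574) and CDC6 (−0.37, adjusted p = 0.04542). Of 12 alternative settings, these calls were kept in 11, 9 and 4. None was kept with only the compared groups, and no pattern of role is drawn from 3 calls. CDC6 averaged 8.93 FPKM at 14 h and 11.8 FPKM at 10 h. RNR1, by contrast, had a log2 change of 0.02 between 14 h and 10 h, though it was lower than with DMSO at both times.

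The polymerase genes POLD1, ICU2 and POL2A were called lower at 10 h. Those calls were kept in 7, 6 and 4 of 12 alternative settings. POLD1 (AT5G63960), the catalytic subunit of polymerase delta, read 14.6, 13.0 and 13.7 FPKM with DMSO, 9.94, 11.8 and 11.3 at 10 h, and 11.3, 9.97 and 9.60 at 14 h. No induced library reached the DMSO range, with log2 fold changes of −0.30 (limma adjusted p = 0.0228) and −0.39 (adjusted p = 0.004405). ICU2 and POL2A were called at 10 h, at −0.32 and −0.36, and were −0.27 and −0.29 at 14 h without a call. RNR1 read 33.5, 36.9 and 34.4 FPKM with DMSO, 23.9, 30.8 and 30.0 at 10 h, and 29.0, 26.5 and 29.8 at 14 h, and was called at both times. PCNA1, PCNA2, MCM10 and FAS2 were called lower at 14 h and not at 10 h, at −0.25, −0.32, −0.32 and −0.35. Their 10 h means were already 0.895, 0.850, 0.921 and 0.837 times those with DMSO. None of them was called for 14 h against 10 h. E2FA was not called at either time, at −0.23 and −0.22.

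RNR2A went the other way. It read 8.43, 9.02 and 9.58 FPKM with DMSO, 16.9, 15.9 and 14.9 at 10 h, and 17.2, 14.2 and 15.2 at 14 h. The induced libraries lay far above the DMSO libraries, with log2 fold changes of 0.76 (limma adjusted p = 0.0001129) and 0.72 (adjusted p = 8.53e-05). TSO2 was not called, and the ratio of RNR2A to TSO2 averaged 0.129 with DMSO, 0.255 at 10 h and 0.242 at 14 h. The overlapping AT3G23570 stayed between means of 3.75 and 4.86 FPKM in all 6 groups of the ZAT table.

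**Figure D4:**
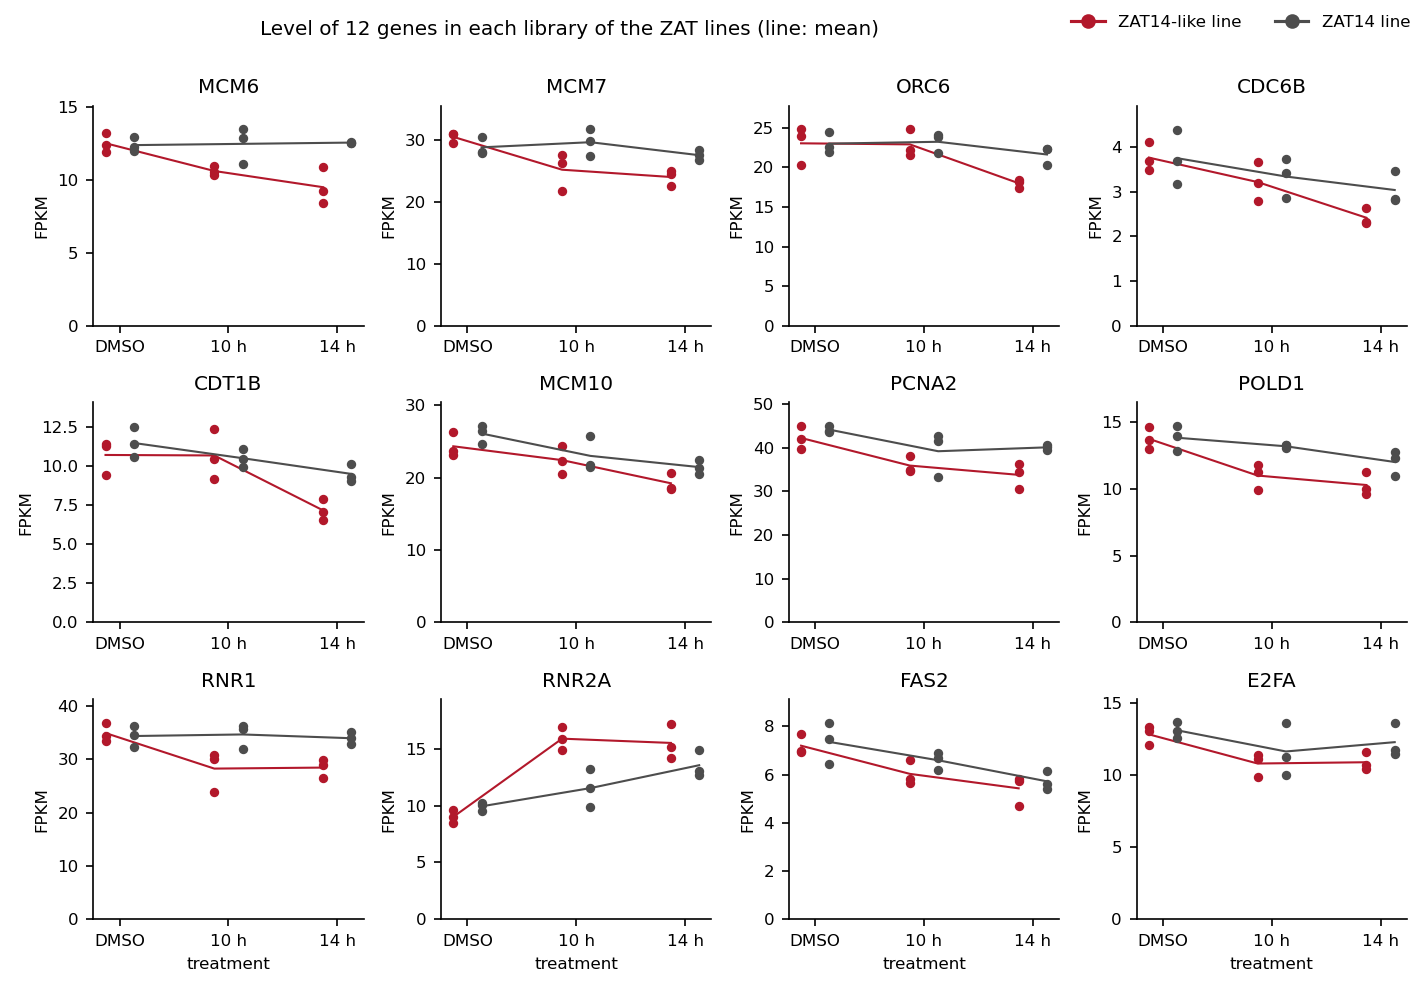
FPKM of 12 genes in each library of the ZAT14-like line (red) and the ZAT14 line (grey) with DMSO and after 10 h or 14 h of estradiol; lines join the means of 3 libraries. In the ZAT14-like line CDT1B and ORC6 read lower at 14 h than at 10 h, POLD1 and RNR1 are already lower at 10 h, and RNR2A is higher at both times.

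These calls depended on single libraries. Of the 7 calls at 10 h, 2 remained without the 10 h library of replicate 1, which held the lowest value of MCM3, MCM4, MCM7, ICU2, POL2A, POLD1 and RNR1 in its group. That library also had a root cap sum of 119.8 FPKM, against 68.99 to 69.97 in the other 10 h libraries. Without a single DMSO library, replicate 1, replicate 2 or replicate 4, 1, 2 and 2 calls were made at 10 h. Over all genes, 10 h calls fell from 2365 to 1203, 1077 and 1704 without those DMSO libraries. They fell to 1552 without the 10 h library of replicate 1. At 14 h, 16 calls became 8 without the DMSO library of replicate 1, 5 without that of replicate 2 and 4 without the 14 h library of replicate 3. Calls over all genes went from 2123 to 1345, 1111 and 1097 in those fits. Between 14 h and 10 h, 1 call remained without the 10 h library of replicate 1 and 1 without the 14 h library of replicate 3. Calls over all genes there went from 1485 to 1227 and 678. Calls kept under every setting tried were RNR2A at 10 h and RNR2A, CDT1B and POLD1 at 14 h.

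More of the other pathway genes were called lower at 14 h than at 10 h. Of 44 fork and S-phase genes, 2 were lower and 2 higher at 10 h, and 10 were lower and none higher at 14 h, with a median of −0.19. POLA2, a subunit of the polymerase alpha-primase complex, averaged 14.8 FPKM with DMSO, 11.9 FPKM at 10 h and 11.01 FPKM at 14 h, and the histone gene H3.1d averaged 72.6 FPKM with DMSO, 66.6 FPKM at 10 h and 50.8 FPKM at 14 h. RBR1, the retinoblastoma-related repressor of E2F, averaged 24.1 FPKM with DMSO, 19.1 FPKM at 10 h and 19.6 FPKM at 14 h, and was called lower at 10 h (−0.33). The inhibitor KRP7 was called higher at 10 h (0.56). Of 21 regulators tested, DEL1 and KRP3 were called lower at 14 h.

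Mitosis markers were called at 14 h and not at 10 h. None of 15 was called at 10 h, when 10 read below 0, and 12 were lower at 14 h, with a median of −0.58. Their sums ran from 287.0 to 345.8 FPKM with DMSO, 308.4 to 334.4 at 10 h and 203.6 to 253.9 at 14 h. Xylem and companion cell markers, of which XCP1 and MYB46 were called higher at both times and the other 2 were not tested, summed to 2.65 to 6.39 FPKM with DMSO, 16.7 to 18.0 at 10 h and 27.2 to 36.3 at 14 h. Root meristem sums ran from 106.4 to 111.5 FPKM with DMSO, 120.8 to 129.4 at 10 h and 126.2 to 136.5 at 14 h, with WOX5 and BBM called higher and SHR lower at both times. Sieve element sums ran from 10.9 to 12.6 FPKM with DMSO, 10.5 to 12.7 at 10 h and 11.4 to 11.9 at 14 h. Root cap sums ran from 73.05 to 81.4 FPKM with DMSO, 68.99 to 119.8 at 10 h and 73.05 to 79.7 at 14 h, with none of 3 markers called. Epidermis and endodermis sums ran from 61.2 to 72.9 FPKM with DMSO, 59.4 to 106.4 at 10 h and 79.3 to 88.1 at 14 h. At 14 h all 3 of these tested read above 0 and GL2 was called higher (0.44). The part of these shifts in the lower replication genes was not tested.

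In the ZAT14 line almost none of the replication genes was called. At 10 h none of the 34 was called by limma, where 1.25% of all genes were lower and 1.96% higher, and 1 had an unadjusted p under 0.05. At 14 h 1 was higher, where 2.85% of all were, and none was lower, where 1.43% of all were, with 7 at an unadjusted p under 0.05. For 14 h against 10 h none was called, where 2.63% of all genes were lower and 2.40% higher, with 2 at an unadjusted p under 0.05. The called gene was again RNR2A. It read 9.53, 10.2 and 10.09 FPKM with DMSO, 13.2, 11.6 and 9.84 at 10 h, and 12.7, 13.1 and 14.9 at 14 h. The 14 h libraries lay above the DMSO libraries (log2 fold change 0.41, limma adjusted p = 0.02255), and the 10 h libraries overlapped them. The call of RNR2A was lost without any 1 of the 3 DMSO libraries, and without the 14 h library of replicate 3 or replicate 4.

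Other genes of that line gave values short of the threshold. MCM10 read 27.2, 26.4 and 24.7 FPKM with DMSO, 25.7, 21.8 and 21.5 at 10 h, and 22.5, 21.4 and 20.5 at 14 h (−0.27 at 14 h, limma adjusted p = 0.07134). FAS2, which places histones on new DNA with FAS1, read −0.31 at 14 h (adjusted p = 0.07125) and CDT1B −0.25 (adjusted p = 0.2132). MCM2 to MCM7 summed to 137.6 ± 4.79 FPKM in DMSO libraries, 136.0 ± 8.56 at 10 h and 132.0 ± 2.896 at 14 h. None of the 15 mitosis markers was called at 14 h against DMSO, though all 15 read below 0, with a median of −0.25. Set against 10 h, 6 of them were lower at 14 h.

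The difference between the lines was tested as the mean response at 10 h and 14 h in the ZAT14-like line minus that in the ZAT14 line. None of the 34 was called by limma, where 0.0350% of all genes were lower and 0.326% higher. At an unadjusted p under 0.05 there were 8 genes, 7 lower and 1 higher. The widest differences among the 34 were those of RNR2A, at 0.44 (adjusted p = 0.2009), ICU2, at −0.38 (adjusted p = 0.2724), ORC2, at −0.32 (adjusted p = 0.6429), and MCM6, at −0.31 (adjusted p = 0.4129). The larger number of calls in the ZAT14-like line was not matched by a called difference of any single gene between the lines.

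Sorted cells of the PLT2 line ask which genes differ when PLT2, a factor of the meristem, is induced in cells maturing as sieve elements. Nearly the whole list read above DMSO in fitted log2 fold change, yet only MCM5 and E2FA were called higher. The genes MCM2, MCM3, MCM4, MCM6 and ETG1 had log2 values of 1.58 to 2.39 that missed the threshold. MCM10 was the exception below 0, and PCNA2, ORC6 and TSO2 lay near 0. With edgeR's quasi-likelihood test and Benjamini-Hochberg adjustment over 24673 genes, 2 of the 34 were called higher, where 0.259% of all genes were, and none lower, where 0.397% of all were. A log2 fold change above 0 was seen in 33 of 34, with a median of 0.92, while the median of all genes was 0.09. At an unadjusted p under 0.05 there were 20 genes, 19 of them higher.

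E2FA (AT2G36010, chr2:15119516-15123184), a transcriptional activator of S-phase genes, had the widest change. It read 40.6, 51.5 and 50.1 normalized CPM with estradiol, against 7.68, 6.44 and 12.1 with DMSO, and the groups lay far apart. Its log2 fold change was 2.44 (SE 0.307, edgeR adjusted p = 0.0412). E2FB, its relative, read 18.5, 24.2 and 17.0 normalized CPM with estradiol and 13.5, 10.2 and 17.6 with DMSO, which overlap (0.53, edgeR adjusted p = 0.3563). Per length of exon, the ratio of E2FB to E2FA was 0.358 to 0.495 with estradiol and 1.52 to 1.84 with DMSO.

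MCM5 (AT2G07690, chr2:3522984-3527500), whose promoter stretch is printed above, read 62.2, 131.1 and 90 normalized CPM with estradiol, against 25.5, 16.2 and 24.0 with DMSO (log2 fold change 2.11, SE 0.335, edgeR adjusted p = 0.04805). The lowest estradiol library was above the highest DMSO library. MCM3 read 39.8, 92.8 and 49.2 normalized CPM with estradiol and 16.0, 6.04 and 12.5 with DMSO (2.39, edgeR adjusted p = 0.05512). MCM2, MCM4, MCM6 and MCM7 had log2 values of 1.71, 1.90, 1.81 and 1.57, with edgeR adjusted p of 0.06872, 0.07554, 0.06427 and 0.2008. In each of these 6 genes the estradiol libraries lay above all DMSO libraries. The share of all genes whose groups lie apart in this way was not computed, here or for the genes below. Per kilobase of exon, MCM2 to MCM7 summed to 76.95 to 154.9 normalized CPM with estradiol and 17.0 to 39.2 with DMSO. ETG1, which binds the helicase, read 30.5, 54.8 and 37.3 normalized CPM with estradiol and 15.8, 11.4 and 13.8 with DMSO (1.58, edgeR adjusted p = 0.05398).

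Origin genes were split. ORC3, ORC2, ORC1B and ORC5 had log2 values of 1.88, 1.71, 1.60 and 1.52, none called. ORC6 averaged 8.58 ± 1.91 normalized CPM with estradiol and 8.10 ± 3.51 with DMSO (0.08). CDT1A read 25.8, 44.1 and 30.5 normalized CPM with estradiol, against 19.8, 19 and 17.2 with DMSO (0.84, edgeR adjusted p = 0.1314). CDT1B averaged 9.51 ± 1.79 normalized CPM with estradiol and 3.48 ± 1.47 with DMSO (1.45, adjusted p = 0.1134). Both CDT1 genes had estradiol libraries above all DMSO libraries.

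MCM10 and the clamp genes differed among themselves. MCM10 read 8.70, 7.65 and 6.93 normalized CPM with estradiol and 12.2, 12.3 and 15.4 with DMSO (log2 fold change −0.77, edgeR adjusted p = 0.1767), with no overlap. Per length, the ratio of MCM10 to MCM2 was 0.154 to 0.332 with estradiol and 0.725 to 1.82 with DMSO. PCNA2 read 11.01, 11.8 and 9.38 normalized CPM with estradiol and 10.97, 7.95 and 12.7 with DMSO (0.03, 95% interval −0.67 to 0.72). PCNA1 averaged 19.3 ± 4.88 normalized CPM with estradiol and 10.4 ± 4.90 with DMSO (0.89, adjusted p = 0.255), and RFC1 averaged 39.1 ± 4.82 with estradiol and 22.8 ± 5.18 with DMSO (0.78, adjusted p = 0.1432). For both of these genes all estradiol libraries lay above all DMSO libraries. The median log2 fold change was 1.56 for the 14 genes with a match to the searched letters. It was 0.87 for the 20 without such a match, among which were E2FA, MCM7, ETG1 and CDT1B. In pear sextuple against Col-0 those medians were 0.00 and −0.11, and in ZAT14-like 14 h against DMSO they were −0.27 and −0.24.

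RNR2A read 7.58, 9.03 and 6.81 normalized CPM with estradiol, against 3.61, 2.75 and 3.104 with DMSO, with no overlap (1.31, edgeR adjusted p = 0.108). TSO2, the other small subunit, read 32.6, 48.1 and 31.4 normalized CPM with estradiol and 29.7, 31.6 and 34.1 with DMSO (0.23). ICU2, POL2A and POLD1 had log2 values of 1.42, 0.94 and 0.90, none called.

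**Figure D5:**
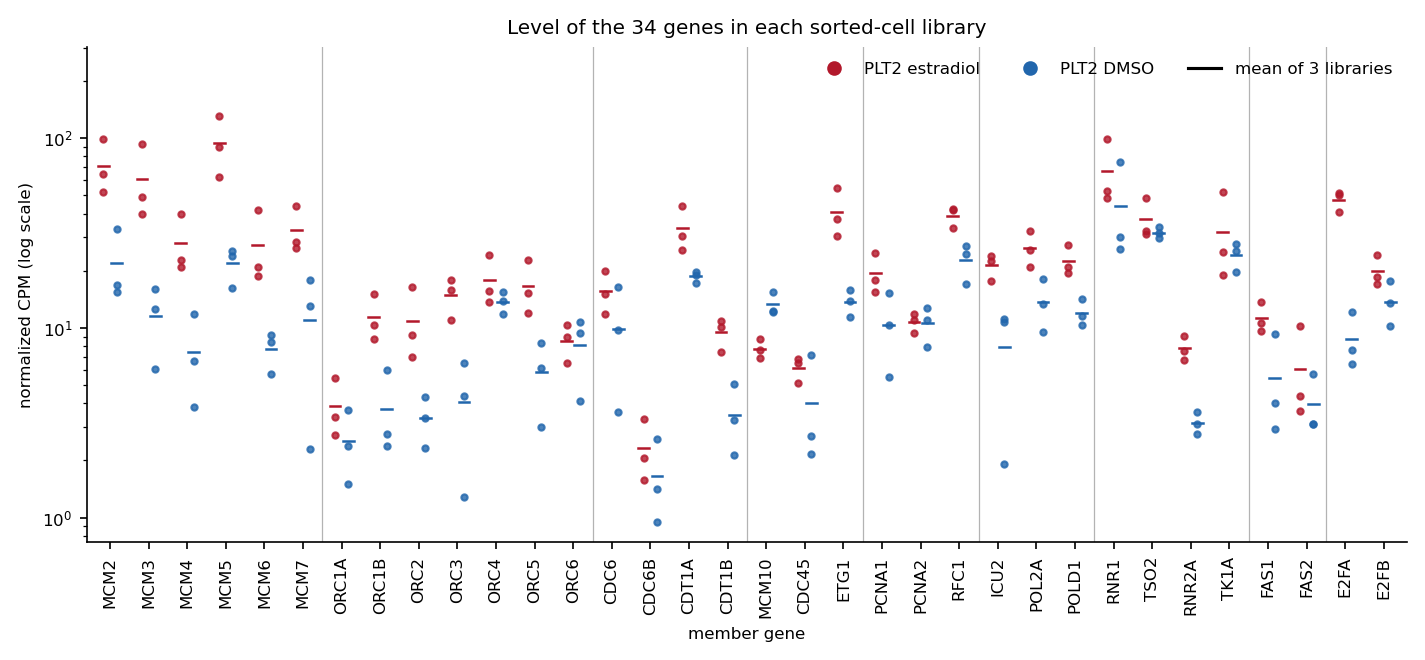
Normalized CPM on a log axis for each of the 34 genes (horizontal axis, grouped by role between grey lines) in 3 libraries of sorted cells with estradiol (red, left) and 3 with DMSO (blue, right); short lines are means. The estradiol libraries of MCM2 to MCM7 and E2FA lie above all DMSO libraries, those of MCM10 lie below, and those of PCNA2 overlap.

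The count of calls in sorted cells depended on single libraries. It was 8, all higher, without the DMSO library of replicate 1, where 2.19% of all genes were higher and 4.93% lower. It was 0 without any other 1 of the 6 libraries, DMSO replicates 2 and 4 and estradiol replicates 1, 2 and 3. In that order, those fits called 0, 1, 4, 3 and 6 of all genes tested, against 162 in the main fit. DESeq2's Wald test called 16 of the 34 higher, where 5.65% of all genes were higher and 9.34% lower. With no filter on low counts edgeR called 6 higher, where 0.527% of all genes were higher and 1.40% lower. Of 45 other fork and S-phase genes none was called by edgeR, 39 read above 0 and the median was 0.88. Of 23 regulators none was called, and RBR1 averaged 108.5 ± 13.7 normalized CPM with estradiol and 75.0 ± 22.5 with DMSO.

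The gate differed between the groups, since estradiol cells had to be positive for YFP as well as RFP. All 8 sieve element markers had log2 fold changes below 0, with a median of −1.51 and 1 called, SEOB (−2.78), and they summed to 1096 to 2427 normalized CPM per kilobase with estradiol and 3206 to 6540 with DMSO. None of 15 mitosis markers was called. They summed to 60.3 to 99.1 normalized CPM per kilobase with estradiol and 45.6 to 57.9 with DMSO, and their median log2 fold change was 1.05. Root cap markers summed to 12.0 to 62.0 with estradiol and 8.19 to 75.3 with DMSO on that scale. Epidermis and endodermis markers summed to 4.12 to 19.1 with estradiol and 1.00 to 21.0 with DMSO, and xylem and companion cell markers to 5.00 to 14.7 with estradiol and 6.87 to 15.6 with DMSO. Of the root meristem markers only the induced PLT2 was called. The gate and the treatment cannot be told apart here, and the part of these markers in the result was not tested.

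Across the comparisons the same role could move in different genes. PCNA1, PCNA2, ORC6, CDT1B and MCM10 were called lower both in pear sextuple against Col-0 and in ZAT14-like 14 h against DMSO, which were made from separate libraries. They are 5 of the 7 lowered genes of the mutant comparison and 5 of the 15 of the other. Over all 16125 genes tested in both, 197 were lower in both, which is 6.42% of the lowered genes of the mutant comparison and 26% of those of the other. At 14 h, though, 15 of the 34 were called lower, against 4.49% of all genes tested, so these shares start from unlike rates. Of 12 alternative settings, the 14 h call was kept in 5 for PCNA1, 7 for PCNA2, 8 for ORC6 and MCM10 and 12 for CDT1B. ICU2, POL2A and RNR1 were called higher in pear sextuple against Col-0, a call that rescaling removed, and lower in ZAT14-like 10 h against DMSO. Over all genes, 148 had that pair of calls, 2.09% of the first kind and 18.2% of the second. Genes overlapping ICU2 by 1326 bases and POL2A by 1756 averaged 0 FPKM in every ZAT group. In the mutant table they averaged 10.9 to 11.1 and 2.86 to 3.87 FPKM. Whether the tables count overlapping reads alike was not tested. RNR2A was called higher in pear sextuple, at both times in the ZAT14-like line and at 14 h in the ZAT14 line. MCM2 to MCM7 had log2 changes of −0.04 to 0.13 in pear sextuple, −0.37 to −0.21 at 14 h in the ZAT14-like line and 1.57 to 2.39 in sorted PLT2 cells.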

How the data were processed

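Root meristem libraries (18 of the ZAT lines, 6 of the mutant set) and 6 sorted-cell libraries were analysed. Per the labels' protocols, meristem libraries were made from poly(dT)-selected RNA, and sorted-cell cDNA was amplified by 18 PCR cycles before library preparation. The deposited FPKM values were made by the authors, with TopHat2, HTSeq and TAIR10 named in the submitters' processing notes. Raw counts per gene were deposited for the sorted cells, with Bowtie2 and featureCounts named there. Versions and strand settings are not given in the sources used here. FPKM reads lower for all other genes where abundant genes hold a larger share, and amplified counts are not independent molecules. Intervals cover the spread between libraries.

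Groups came from sample titles, and 0 columns were left out. The members and all gene lists were chosen with earlier results of these data known. For FPKM tables limma 3.58.1 (R 4.3.3; lmFit, then eBayes with its trend option) was run on log2(FPKM + 1), keeping genes that reached 1 FPKM in 3 or more libraries. The mutant table was fitted alone and the ZAT table as 6 group means over 18 libraries. Such fold changes understate those of low genes. Counts were tested with edgeR 4.0.16 (TMM, filterByExpr, quasi-likelihood), and CPM was computed here from the counts with TMM-scaled totals. TMM factors were 0.717 to 1.01 for DMSO and 1.15 to 1.28 for estradiol libraries. All tests were two-sided. Called genes are those whose p, adjusted by Benjamini-Hochberg over all genes tested, was under 0.05. Errors are SD over n = 3 libraries unless named SE. FPKM depth was estimated from the steps of low values. Of these, 36.75% to 37.78% in the mutant table and 76.12% to 78.4% in the ZAT table were whole reads within a tolerance of 0.05, so no counts were recovered.

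All 34 genes could be named. Of other pathway genes, up to 6 called genes per list and comparison were named by smallest adjusted p, and marker genes by value. Gene starts came from RefSeq TAIR10.1 by locus code, all 34 matched, and Python 3.11.15 searched the letters. The steps were tested on simulated data. Alternatives were a pseudocount of 0.1, no filter, median-ratio rescaling, a replicate block, fits of compared groups only, leaving out libraries, and DESeq2 1.42.0 with its size factors.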

Additional observations from a re-analysis of the deposited data

How the results depend on the processing

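In ZAT14-like 10 h against DMSO the main count of 7 became 4 with a replicate block, 1 with only the compared groups and 1 without the 3 ZAT libraries numbered 2, and ran from 1 to 7 when single libraries were left out. Over all genes, calls went from 2365 to 1875, 406 and 1049 in those fits, and ran from 1077 to 3731 with single libraries out. In ZAT14-like 14 h against DMSO the count of 16 became 9 with the replicate block and 4 without the libraries numbered 2, and ran from 4 to 15 with single libraries out. Calls over all genes there went from 2123 to 1574 and 1060, and ran from 1097 to 2071. For ZAT14-like 14 h against 10 h, 3 became 0 with only the compared groups and ran from 1 to 4 with libraries out. Calls over all genes there went from 1485 to 297 and ran from 678 to 2413. For ZAT14 14 h against DMSO, 1 became 2 with only the compared groups and 0 without the libraries numbered 2, and ran from 0 to 1. Calls over all genes there went from 735 to 1086 and 309, and ran from 343 to 748. In sorted PLT2 cells, 2 became 1 with DESeq2 size factors in edgeR, 16 with the DESeq2 Wald test, 6 with no filter on low counts and 12 with the replicate block, and ran from 0 to 8. Calls over all genes there went from 162 to 92, 3070, 626 and 1829, and ran from 0 to 1833. The cause was not tested. In pear sextuple against Col-0 the count of 13 ran from 9 to 15 with libraries out and was 12 with the block. Calls over all genes there were 10778, ran from 8869 to 10631 and were 9946 with the block. The labels used here do not say what replicate numbers stand for. Same-numbered libraries had deviations correlated at 0.253 to 0.355 in the mutant table over 2 pairs, 0.0989 to 0.244 in sorted cells over 2 pairs and −0.161 to 0.502 in the ZAT table over 34 pairs. For libraries numbered differently the ranges were −0.38 to 0.16 over 7 pairs, −0.308 to 0.188 over 7 and −0.498 to 0.456 over 101. The same-numbered pairs of the mutant table thus lay above its other pairs. Whether the numbers mark a batch was not tested. ZAT14 10 h against DMSO, ZAT14 14 h against 10 h and the difference between the lines stayed at 0 calls under every alternative run. Over the single genes and alternatives, 3704 values kept their side of the threshold, 149 lost a call, 57 gained one and no called value changed sign. The share of promoters with a match was 38.2% with TTTCCCGC and TTTGGCGC alone. With 3 libraries a group, changes below those called may have gone undetected.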
